A study of Mus musculus with 9 samples.

Results

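The genes described here encode the cargo and the processing enzymes of dense-core vesicles, the organelles from which endocrine cells and neurons release peptide hormones and neuropeptides on demand. They are 9 of the 30406 genes measured in every library, taken by symbol from the feature tables: the granins Chga, Chgb, Scg2 and Scg3, the PC2 chaperone Scg5, the PC1 inhibitor Pcsk1n, the prohormone convertases Pcsk1 and Pcsk2, and carboxypeptidase E, Cpe. They are taken by name and role, and the rule itself uses no measured value.

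Granins are acidic, calcium-binding proteins that aggregate in the trans-Golgi network and take part in forming the vesicle. Inside it, the convertases cut prohormones after pairs of basic residues and carboxypeptidase E trims the basic residues that remain at the new ends. The set is known from adrenal medulla, pituitary, pancreatic islets and brain, and fibroblasts largely lack the regulated pathway.

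The cells were mouse embryonic fibroblasts (MEFs) on their way to induced neurons (iNs). The MEFs came from WT, Per1-/- (allele Per1tm1Drw) and Per2-/- (allele Per2tm1Drw) mid-gestation embryos without head and heart, several embryos were pooled per dish, and the cells were used at the first passage with the sex of the embryos not determined. All 9 libraries had received the BAM genes, which include Brn2 (Pou3f2) and Myt1l, from doxycycline-inducible lentiviruses together with the transactivator M2rtTA, so each group carries the transgenes and there is no library without them. Single cells were taken 4, 7 and 10 days after the change to doxycycline medium, which gave 1 library of 10x 3′ counts for each genotype and day. With 1 library in each cell of the design, every p-value below measures the spread between libraries of different days or genotypes, and every counting interval covers counting error only.

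After filtering, 74827 of 95603 cell barcodes were kept. The Leiden clusters were named from marker genes, with the 9 genes left out of the clustering, and each name ends in -like because it rests on those markers alone. The neuron-like class held 6983 cells from clusters 4, 18 and 21, with between 220 and 1531 cells per library. Its 15 neuron markers, Tubb3, Stmn2 and Map2 among them, summed to between 4081 and 7896 CPM, the UMI of a gene scaled in the usual way by all UMI of the class in a library, and none of them was at 0. Markers of other cells in the same class were lower: the macrophage list summed to between 21.7 and 176 CPM with none of 16 at 0, and the fibroblast list to between 908 and 1333 CPM. An endocrine list summed to between 9.46 and 27.8 CPM with Ins1 and Ins2 at 0, and a sympathoadrenal list to between 17 and 41.9 CPM with Dbh, the enzyme that makes noradrenaline, at 0. The library labelled WT day 10 stood apart, with 55.4% of its barcodes passing the filters and a median of 3552 UMI, and the day 10 counts were also made without it. At most 365 barcodes were shared by 2 libraries, 2.89% of the smaller one. The targeted genes were not lower in the libraries labelled for their loss, since neuron-like Per1 was between 6.11 and 7.90 CPM in the libraries labelled Per1-/- against 5.09 to 6.04 in WT, and Per2 was between 6.65 and 9.71 in those labelled Per2-/- against 2.31 to 2.93 in WT. A 3′ tag can lie outside the disrupted part of a gene, so these values check nothing about the labels.

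Of the 9 genes, 8 had a promoter in the RefSeq table for GRCm38.p6, 250 bases before to 50 after the start, and Cpe had none. Stretches of the promoters of Chga, Chgb, Scg2 and Pcsk1 are shown because each holds the cyclic AMP response element (CRE) in the form TGACGTNA, in capitals, to which CREB family proteins bind. They are printed 5′ to 3′ on the strand of the gene.
Chga (chr12:102554821-102554940, plus strand): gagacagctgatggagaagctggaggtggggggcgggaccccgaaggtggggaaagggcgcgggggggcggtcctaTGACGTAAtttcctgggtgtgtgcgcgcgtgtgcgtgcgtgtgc
Chgb (chr2:132781522-132781641, plus strand): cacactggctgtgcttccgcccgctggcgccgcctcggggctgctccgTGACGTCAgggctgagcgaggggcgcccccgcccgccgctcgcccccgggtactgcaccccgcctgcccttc
Scg2 (chr1:79440027-79440146, minus strand): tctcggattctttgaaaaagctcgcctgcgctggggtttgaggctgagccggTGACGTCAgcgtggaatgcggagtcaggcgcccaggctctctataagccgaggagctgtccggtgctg
Pcsk1 (chr13:75089737-75089856, plus strand): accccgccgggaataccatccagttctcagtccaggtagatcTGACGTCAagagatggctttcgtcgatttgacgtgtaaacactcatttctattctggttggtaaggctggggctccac

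The motif began 44 bases before the start in Chga, 68 in Scg2, 72 in Chgb and 78 in Pcsk1. On either strand, TGACGTNA was found in 4 of the 8 promoters and in 2.93% of all 32851 promoters of this length. The stricter TGACGTCA, which is contained in it, was found in 3 of the 8 (Chgb, Scg2 and Pcsk1) and in 1.79% of all. The shorter TGACG, which overlaps both, was found in 7 of the 8 and in 20.8% of all. The Scg2 promoter also held the letters of both parts of the element bound by the repressor REST, TTCAGCACC and GGACAG, on the opposite strand. The first was in 0.371% and the second in 22.2% of all promoters. Their matches began 7 and 13 bases before the start, with no base between them. The parts were searched for one by one without a set spacing, so a whole element was not looked for. A match of letters is a description and not a site in use.

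The first question is which cells made these transcripts. For Pcsk2, Chgb and Chga, the neuron-like cells held 67.8%, 67.4% and 66.6% of all UMI of the gene, and for Pcsk1n, Scg5 and Scg3 they held 60.4%, 60.0% and 56.8%. The neuron-like share was between 35.3% and 84.8% in every library for these 6 genes. Scg2 was divided between neuron-like cells (26.2%), fibroblast-like cells (29.7%) and cells of unnamed clusters (39.9%). Its neuron-like share ranged from 4.45% to 56.2% over the libraries. Cpe was mostly outside the neurons, with 48.2% of its 294630 UMI in fibroblast-like and 11.2% in neuron-like cells. Pcsk1 was the rarest, with 1741 UMI in all, of which 6.78% lay in neuron-like cells and 78.7% in unnamed clusters. The unnamed clusters also held between 19.7% and 36.0% of the other members, Scg2 aside.

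**Figure D1:**
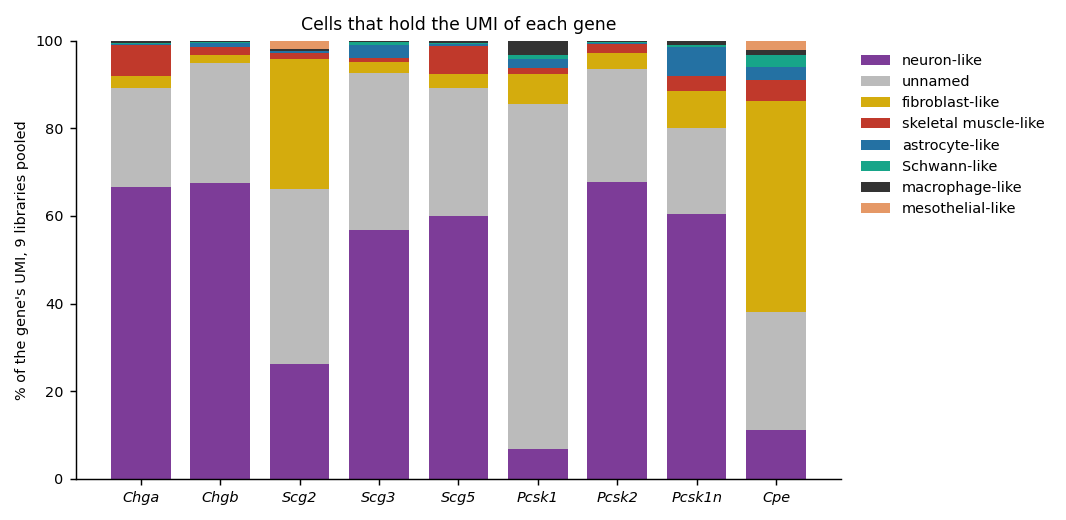
Share of the UMI of each gene, in percent of all cells kept and pooled over 9 libraries, by cell class (stacked bars). Neuron-like cells hold more than 56% of Chga, Chgb, Scg3, Scg5, Pcsk2 and Pcsk1n, fibroblast-like cells hold 48.2% of Cpe, and unnamed clusters hold 78.7% of Pcsk1.

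Classes were then compared over summed counts per library by edgeR's quasi-likelihood test with Benjamini-Hochberg adjustment. All 9 genes were higher in neuron-like than in fibroblast-like cells, where 38% of the 15335 genes tested were higher and 42% lower. The granin Chgb had the largest log2 difference, 8.02 ± 0.44 (SE, n = 9 libraries per class, adjusted p under the threshold of 0.05 as for all 9), with a median of 449 CPM in neuron-like and 1.26 CPM in fibroblast-like cells. Chga differed by 7.73 ± 0.37, Scg3 by 7.65 ± 0.25, Pcsk2 by 7.36 ± 0.26 and Scg5 by 7.29 ± 0.26 on the same log2 scale. Pcsk1n differed by 5.92 ± 0.30. The difference was smaller for Scg2 (2.92 ± 0.41), for Pcsk1 (2.46 ± 0.55) and for Cpe (0.72 ± 0.22, adjusted p = 0.00257). That of Pcsk1 did not extend to cluster 4, at 0.084 CPM with libraries pooled. Fibroblast-like clusters other than cluster 17 lay between 0.027 and 0.130 CPM. Over libraries Pcsk1 ran from 0 to 4.44 CPM in cluster 17, from 0.93 to 10.6 CPM in cluster 18 and from 0 to 9.57 CPM in cluster 21. Cells sorted into classes by neuron markers differ in many neuronal genes, and the members are described here against that background.

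Schwann-like and astrocyte-like cells gave the same 7 genes. Against Schwann-like cells, 7 of the 9 were higher beside 38.9% of all genes higher and 36.9% lower, the exceptions being Pcsk1 (1.28, adjusted p = 0.105) and Cpe (0.13, adjusted p = 0.617). Pcsk1 passed there with the neurons taken by a gate on neuron markers (2.14, adjusted p = 8.4e-04) or with the unnamed cluster 9 counted among them (2.97, adjusted p = 4.57e-06). Against astrocyte-like cells, 7 were higher beside 34.8% of all genes higher and 38.4% lower, and the exceptions were again Pcsk1 (-0.64, adjusted p = 0.383) and Cpe (-0.12, adjusted p = 0.648). The smallest of the called differences from astrocyte-like cells was that of Pcsk1n, 0.91 (adjusted p = 0.00312), and Scg3 differed by 2.16. Without the 3 libraries of day 10 the Pcsk1n difference was 0.53 and did not pass (adjusted p = 0.0874).

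For each gene the classes were ordered by their mean log2 level over libraries. Every pair of classes, neighbours in that order among them, was compared by an exact sign-flip permutation test over libraries. The test was two-sided and adjusted over 189 pairs, and 9 libraries allow no p below 0.0039. By mean level neuron-like cells stood first for 7 genes. Skeletal muscle-like cells came second for Chga, Chgb, Scg5 and Pcsk2, below the neuron-like cells in 9 of 9 libraries (adjusted p = 0.013 for each). Their levels were still measurable, from 22.4 to 40.8 CPM for Scg5, from 6.08 to 19.6 CPM for Chgb and from 1.81 to 21 CPM for Chga. They were above the astrocyte-like cells in 8 of 8 libraries for Chga and for Scg5 (adjusted p = 0.0162), whereas for Chgb these neighbours did not differ beyond their spread (adjusted p = 0.269).

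Astrocyte-like cells came second for Scg3 and Pcsk1n. Their Scg3 ran from 10.2 to 70.7 CPM and was below the neuron-like level in 8 of 8 libraries (permutation test, adjusted p = 0.0162). Their Pcsk1n ran from 35.3 to 162 CPM and was below it in 6 of 8 (adjusted p = 0.0461). In this class Chgb stood at 109 CPM in WT day 7 and at no more than 12.6 CPM in the other libraries. The astrocyte-like class was small, with 18 cells in Per1-/- day 10, a library not used in its tests. Of its barcodes 17.7% were removed as doublets, against 0.618%, 4.7% and 2.27% in the neuron-like clusters 4, 18 and 21. The part of any remaining doublets in its levels was not tested.

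For Cpe the order was different. Mesothelial-like cells ranked first by mean level, from 339 to 571 CPM in the 7 libraries with at least 20 of them, above the neuron-like cells in 6 of 7 (permutation test, adjusted p = 0.0461) and not shown to differ from the astrocyte-like cells (adjusted p = 0.43). Neuron-like and astrocyte-like cells did not differ beyond their spread (adjusted p = 0.763), and macrophage-like cells were lowest, from 10.7 to 59.0 CPM. For Pcsk1 no pair of neighbouring classes differed beyond its spread, the astrocyte-like cells being above the neuron-like cells in 6 of 8 libraries (adjusted p = 0.0943). By the same test Pcsk1 was higher in neuron-like than in fibroblast-like cells. That difference did not pass at Leiden resolution 0.5 (1.55 on the log2 scale, adjusted p = 0.0532) or over non-mitochondrial UMI (1.66, adjusted p = 0.166). The latter setting also changed the small value added before the log2, so the part of the mitochondrial UMI cannot be told apart from it. For Scg2 the neuron-like cells were first by mean level, above the fibroblast-like cells in 9 of 9 libraries (adjusted p = 0.013) and above the mesothelial-like cells in 5 of 7, a difference that did not pass (adjusted p = 0.0844). Fibroblast-like and mesothelial-like cells did not differ beyond their spread (adjusted p = 1). The mesothelial-like level of Scg2 was uneven, at 147 CPM in Per1-/- day 7, 72.8 CPM in Per2-/- day 7 and 10.1 CPM in WT day 7, with at most 1.19 CPM in the libraries of days 4 and 10.

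**Figure D2:**
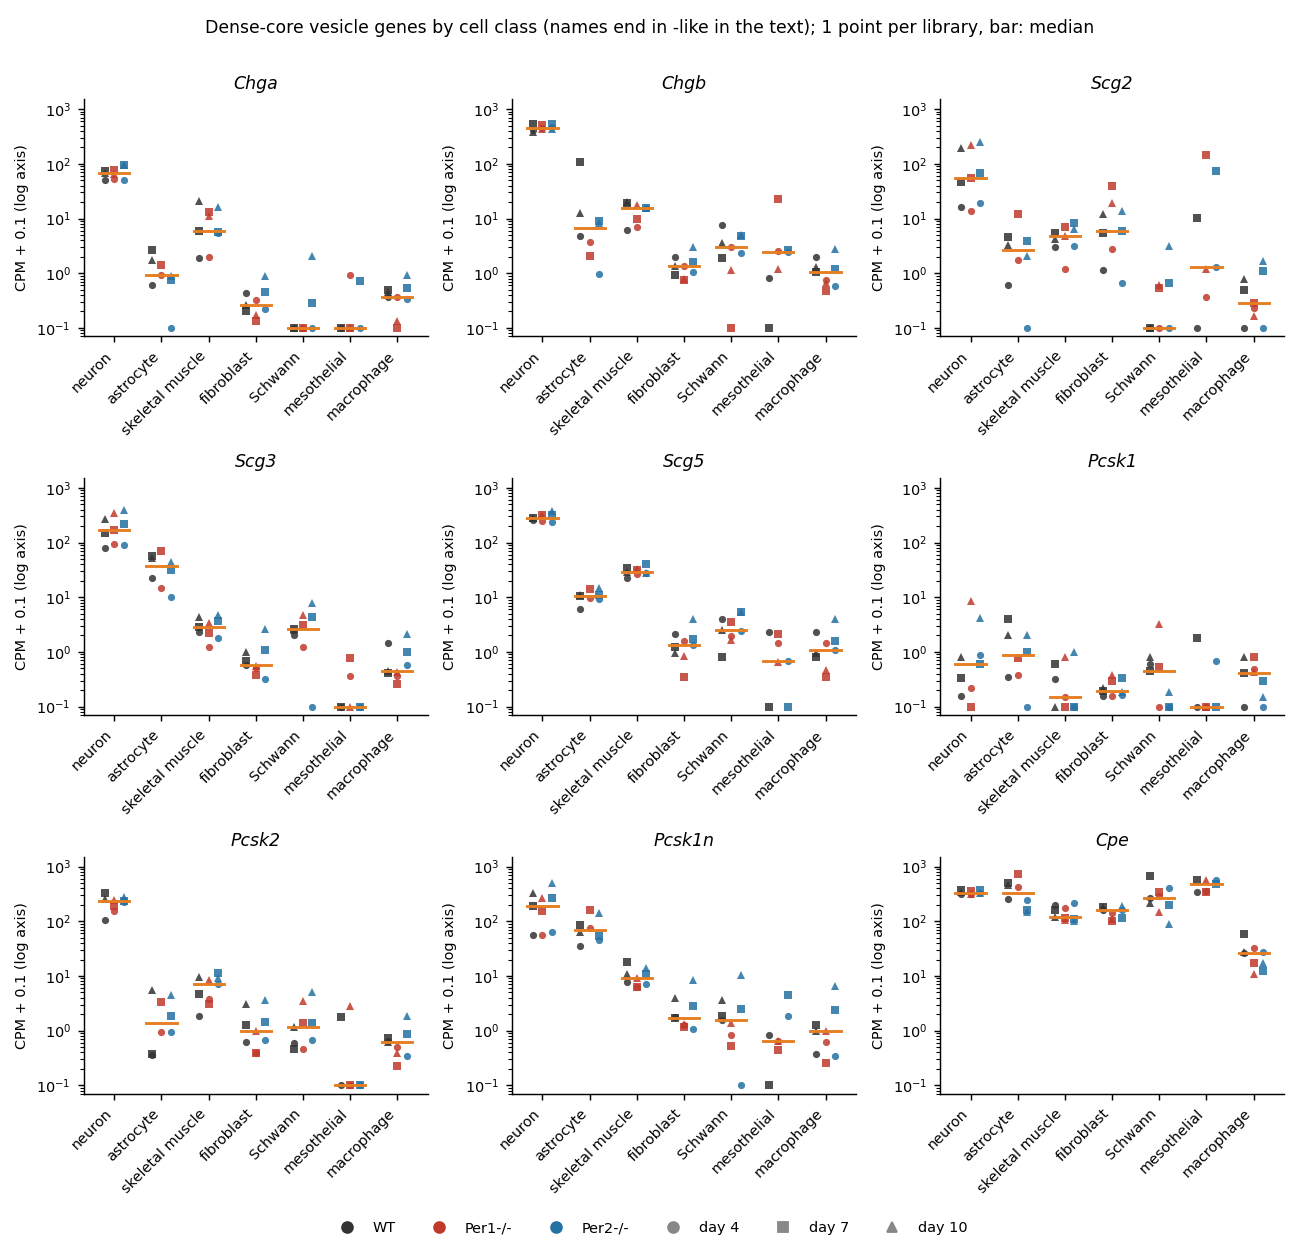
Level of each gene in CPM plus 0.1 (log axis) by cell class, 1 point per library with at least 20 cells of the class and bars at the median. The neuron-like points lie above those of every other class for Chga, Chgb, Scg5 and Pcsk2, while for Cpe the astrocyte-like points reach 722 CPM and the classes overlap.

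The share of cells with at least 1 UMI of a gene was compared after thinning each cell to 3000 UMI. In neuron-like cells the median share over the 9 libraries was 69.0% for Chgb (range 65.2% to 73.5%), 60.2% for Cpe and 56.8% for Scg5. Pcsk2 was seen in 43.1%, Scg3 in 39.7%, Pcsk1n in 30.4%, Chga in 20.5% and Scg2 in 11.8% of them. The background was low, since the macrophage-like medians were 0.256% for Chgb, 0.384% for Scg5, 0.240% for Pcsk1n and 0% for Chga, Scg2, Scg3 and Pcsk2, and 6.93% for Cpe. Without thinning the neuron-like medians were 92.9% for Chgb, 91.8% for Cpe, 89.3% for Scg5 and 26.3% for Scg2. Pcsk1 was seen in 0.0724% of thinned neuron-like cells, with a range from 0% to 1.78%. A thinned neuron-like cell held a mean of 3.10 of the 9 genes, 4.43% of the cells held none and 19.5% held at least 5. The mean was 4.26 in cluster 18, 2.63 in cluster 21, 0.365 in fibroblast-like and 0.0676 in macrophage-like cells.

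The next comparison asks how the genes moved in the neuron-like cells from day 4 to days 7 and 10, with the 3 genotypes as replicates and genotype as a term. At day 7, 4 of the 9 genes were higher (Chga, Scg2, Scg3 and Pcsk1n) and none was lower, where 9.61% of 14111 genes were higher and 7.01% lower. The median log2 fold of the 9 was 0.64 and that of all genes -0.003. At day 10, 7 of the 9 were higher (those 4 with Scg5, Pcsk1 and Pcsk2) and none was lower, where 23.9% of all genes were higher and 21.3% lower. The median of the 9 was then 0.77. The libraries of day 10 were counted on another gene annotation (32285 genes) than those of days 4 and 7 (31053 genes). In every comparison of day 10 with day 4, here and below, day and annotation cannot be told apart. The Per1-/- libraries also differed between days in Xist, the transcript of the inactive X. Over all cells kept it was at 488 CPM in Per1-/- day 4, 0.067 in day 7 and 0.059 in day 10. Pcsk1n lies on chromosome X. The part of this difference in the changes by day was not tested, in these or in the fibroblast-like cells. At day 10, DESeq2 and limma-voom called 7 each, beside 20.2% and 25.5% of all genes higher, and the fit without WT day 10 called 7, beside 22.5%. With 1 library left out at a time, Pcsk2 missed the threshold without WT day 4 or Per1-/- day 10. Pcsk1 was too low to be tested without Per1-/- or Per2-/- day 10, and the rest of the 7 stayed called. A gate on neuron markers in place of the clusters gave 5 higher and 1 lower, beside 19.4% and 16.2% of all genes. Scg2, Scg3 and Pcsk1n had the 3 largest folds at day 7, and Chgb and Cpe passed at neither day.

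Secretogranin II, Scg2, is a granin and the precursor of the peptide secretoneurin. It was at 15.9, 13.6 and 18.8 CPM in WT, Per1-/- and Per2-/- on day 4, at 45.7, 54.6 and 68.6 CPM on day 7 and at 195, 219 and 251 CPM on day 10. The days did not overlap. The log2 fold was 1.79 ± 0.11 (SE, n = 3 libraries per day) at day 7 (adjusted p = 8.74e-06) and 3.85 ± 0.11 at day 10 (adjusted p = 3.14e-09). Over 18 other settings of the processing it ran from 1.68 to 2.08 at day 7 and from 2.20 to 3.97 at day 10, and Scg2 was called in all 18 of them at both days.

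Secretogranin III, Scg3, binds Chga and cholesterol-rich membrane and helps to load the vesicle. It was at 80.6, 95.2 and 91.6 CPM on day 4, at 152, 168 and 222 CPM on day 7 and at 268, 344 and 388 CPM on day 10, in the order WT, Per1-/- and Per2-/-. No library of a later day was below one of an earlier day. Scg3 changed by a log2 fold of 1.0 ± 0.10 at day 7 (adjusted p = 1.34e-04) and 1.95 ± 0.10 at day 10 (adjusted p = 2.27e-07).

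Chromogranin A, Chga, the founding granin, was at 51.2, 51.9 and 50.4 CPM on day 4 in the same order of genotypes. It was at 72.9, 76.2 and 94.1 CPM on day 7 and at 68.4, 66.0 and 93.4 CPM on day 10. Both later days lay above day 4 and overlapped with each other. On the log2 scale Chga changed by 0.64 ± 0.12 at day 7 (adjusted p = 0.0039) and 0.62 ± 0.12 at day 10 (adjusted p = 0.00137). With the gate on neuron markers the Chga fold at day 7 was 0.32 and did not pass (adjusted p = 0.183).

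Chromogranin B, Chgb, was at 413, 449 and 476 CPM on day 4, at 524, 502 and 540 CPM on day 7 and at 385, 440 and 432 CPM on day 10. It was highest on day 7 in all 3 genotypes, and days 4 and 10 overlapped. Neither change passed the test, with log2 folds of 0.22 ± 0.09 at day 7 (adjusted p = 0.108) and -0.03 ± 0.09 at day 10 (adjusted p = 0.83).

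Scg5, also called 7B2, escorts PC2 through the secretory pathway. It was at 257, 244 and 237 CPM on day 4, at 278, 316 and 320 CPM on day 7 and at 283, 317 and 374 CPM on day 10. All later libraries lay above those of day 4, and days 7 and 10 overlapped. Its log2 fold came to 0.29 at day 7 (adjusted p = 0.0896) and 0.46 ± 0.11 at day 10 (adjusted p = 0.00544), the latter called in 17 of the 18 settings. The exception was the gate on neuron markers, with 0.15 (adjusted p = 0.466).

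Pcsk1n encodes proSAAS, a granin-like protein whose C-terminal peptide inhibits PC1. It was at 56.4, 56.7 and 63.6 CPM on day 4, at 191, 157 and 264 CPM on day 7 and at 333, 265 and 497 CPM on day 10. The days did not overlap, although the lowest library of day 10 (Per1-/-) and the highest of day 7 (Per2-/-) nearly met. On the log2 scale it changed by 1.74 ± 0.13 at day 7 (adjusted p = 2.86e-05) and 2.64 ± 0.13 at day 10 (adjusted p = 1.71e-07).

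Pcsk2 encodes the convertase PC2. It was at 108, 152 and 228 CPM on day 4, at 329, 193 and 239 CPM on day 7 and at 256, 249 and 278 CPM on day 10. Day 4 overlapped with day 7 but not with day 10. The log2 fold was 0.67 ± 0.22 at day 7 (adjusted p = 0.0642, called in 3 of the 18) and 0.77 ± 0.22 at day 10 (adjusted p = 0.0144, called in 15 of 18). At day 10 it missed the threshold without WT day 4 (0.47, adjusted p = 0.0507), without Per1-/- day 10 (0.70, adjusted p = 0.0678) or with the gate on neuron markers (0.52, adjusted p = 0.121).

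Pcsk1 encodes the convertase PC1 and rested on few counts. The neuron-like cells of WT, Per1-/- and Per2-/- held 1, 3 and 9 UMI on day 4, which is 0.0564, 0.116 and 0.767 CPM. They held 2, 0 and 5 UMI on day 7 (0.238, 0 and 0.490 CPM) and 3, 42 and 53 UMI on day 10 (0.694, 8.28 and 4.01 CPM). The 0 in Per1-/- day 7 allows up to 0.926 CPM. At day 10 the Per1-/- and Per2-/- libraries were above all others and WT was below the highest library of day 4. The log2 fold was 0.38 ± 1.05 at day 7 (adjusted p = 0.843) and 4.02 ± 0.70 at day 10 (adjusted p = 8.39e-04), and a fitted fold of so few counts depends on the prior count. With the gate on neuron markers the Pcsk1 fold at day 7 was 2.21 and passed (adjusted p = 0.0196). At day 10 it was 2.07 with that gate, 2.46 at Leiden resolution 0.5, 2.82 without Per1-/- day 4 and 5.48 without Per2-/- day 4, each past the threshold.

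Cpe was at 317, 312 and 336 CPM on day 4, at 371, 355 and 373 CPM on day 7 and at 340, 313 and 330 CPM on day 10. Day 7 was above the other days and days 4 and 10 overlapped. Neither log2 fold passed the test, at 0.18 (adjusted p = 0.146) and 0.09 ± 0.08 (adjusted p = 0.39). At Leiden resolution 0.5, in 1 of the 18 settings, the Cpe fold at day 10 was 0.21 and passed (adjusted p = 0.0451).

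**Figure D3:**
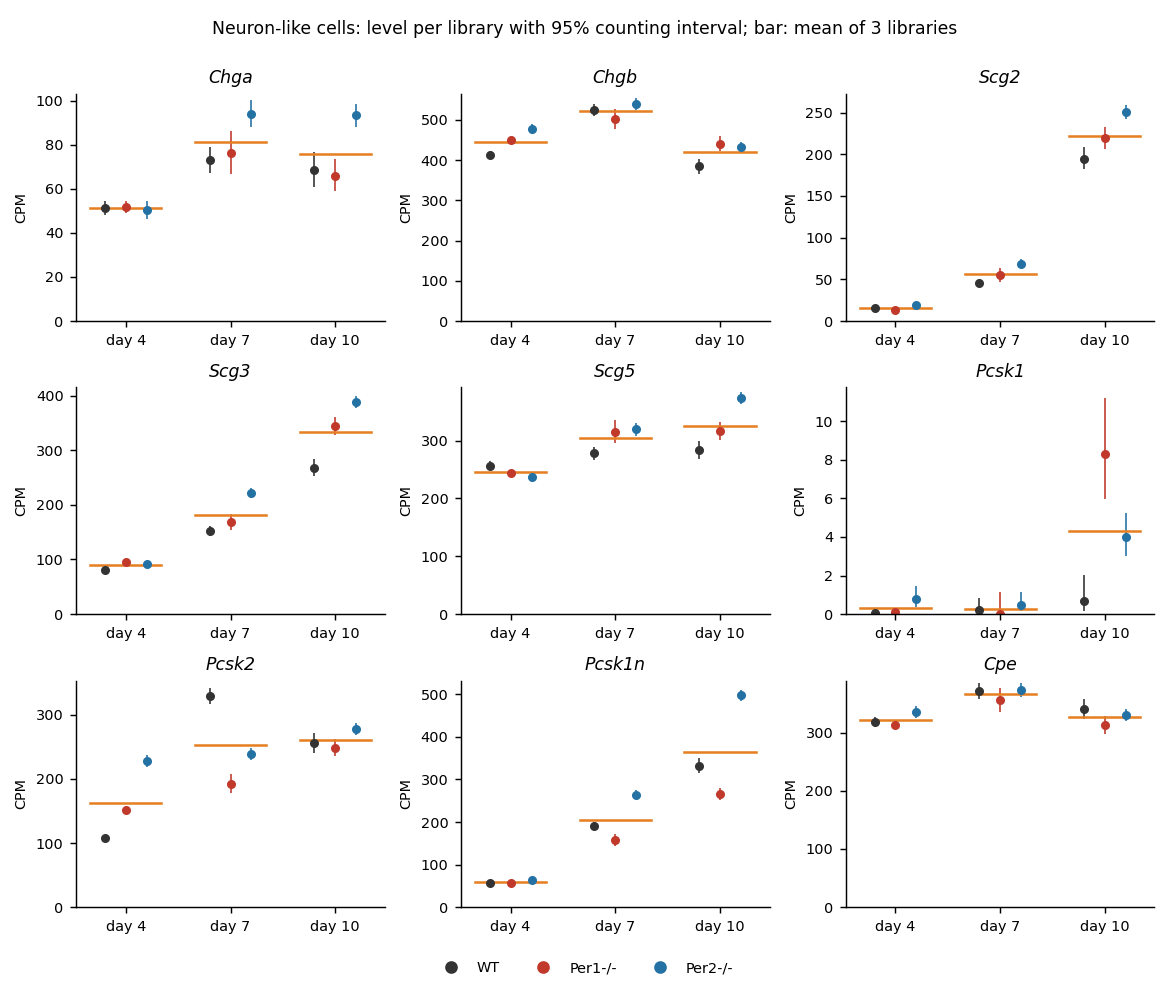
Level of each of the 9 genes in neuron-like cells in CPM by day, 1 point per library coloured by genotype, with its 95% counting interval and a bar at the mean of 3 libraries. Scg2, Scg3 and Pcsk1n climb from day 4 to day 10 in every genotype, while Chgb and Cpe end near their day 4 level.

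The neuron-like class did not keep the same clusters over time. Cluster 4, led by Miat, Lhx3 and Igfbpl1, held between 92.6% and 96.4% of the neuron-like UMI on day 4, between 73.3% and 84.7% on day 7 and between 4.15% and 8.26% on day 10. Cluster 18, led by Snhg11, Caly and Stmn3, held between 72.3% and 88.6% on day 10 and no more than 0.257% on day 4. Cluster 21, led by Htr3a, Pomc and Krt8, held between 3.5% and 22.2%. Within cluster 4, 6 of the 8 genes tested were higher at day 7: Scg2 by 1.49, Pcsk1n by 1.80, Scg3 by 1.14, Chga by 0.62, Pcsk2 by 0.72 and Scg5 by 0.41 on the log2 scale. In that fit 8.7% of 13533 genes were higher and 7.28% lower. Within cluster 4 at day 10, 0 of the 8 passed edgeR's test, beside 2.29% of all genes higher and 1.49% lower, with Scg2 at 0.59 ± 0.38 (adjusted p = 0.468) and Pcsk1n at 0.69 (adjusted p = 0.072). The cluster then held 21, 48 and 48 cells in WT, Per1-/- and Per2-/-, against 1334, 1455 and 983 on day 4. With so few cells, 0 calls do not show that the genes stayed level. Within cluster 21, Scg2 alone was higher at day 7 (1.19, adjusted p = 0.0299), beside 0.828% of 9785 genes higher and 0.296% lower. In that cluster Pcsk2 (1.41, adjusted p = 0.00156) and Pcsk1n (1.11, adjusted p = 0.0221) were higher at day 10, beside 2.2% of all genes higher and 0.95% lower. These within-cluster fits were chosen after the data were seen.

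**Figure D4:**
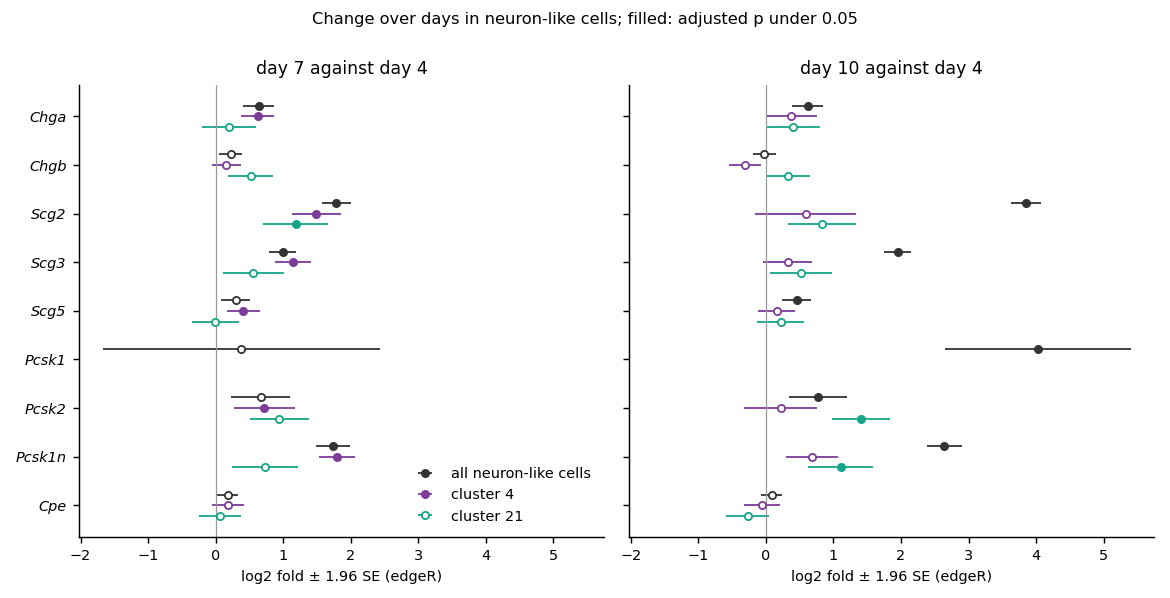
Log2 fold of each gene at days 7 and 10 against day 4, with its 95% interval, over all neuron-like cells and within clusters 4 and 21; filled points passed the test at an adjusted p under 0.05. At day 10 the Scg2 fold is 3.85 over all neuron-like cells and 0.59 within cluster 4. None of these genes passed there, with between 21 and 48 cells of the cluster in each library of day 10.

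The clusters differed in these genes at day 10, given here as a description since cells of one experiment define the clusters. Cluster 18 was above cluster 4 in 3 of 3 libraries for Scg2 (means of 267 and 20.2 CPM, a ratio of 13.2), for Pcsk1n (413 and 90.1 CPM, a ratio of 4.58), for Scg3 (398 and 116 CPM, a ratio of 3.44) and for Pcsk2 (a ratio of 1.44). For Chga, Chgb, Scg5 and Cpe it was above cluster 4 in 2 of 3. Cluster 21 was above cluster 4 in Scg2 in 9 of 9 libraries (73.2 and 25.5 CPM) and below it in 9 of 9 in Scg3 (a ratio of 0.531) and Pcsk2 (a ratio of 0.467).

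Cluster 9 met the rule for neuron markers, with a mean log2 fold of 1.10 and 10 of them at least 2-fold up. It was left unnamed because its 10 leading genes held a marker of the endocrine list, Gcg, and none of the neuron list. Pln, Nts and the introduced factor Pou3f2 were among the other leading genes. Its neuron marker sum had a median of 1652 CPM against 6679 in the neuron-like class, and its endocrine marker sum lay between 81.9 and 358 CPM. Over 8 libraries, Scg2 was higher in cluster 9 than in cluster 4 in 8 of 8 (means of 166 and 27.2 CPM) and so was Pcsk1 (15.9 and 0.05 CPM). Chga (a ratio of 0.427), Chgb (0.540), Scg5 (0.630), Pcsk2 (0.384) and Pcsk1n (0.587) were lower in it in 8 of 8, and Scg3 was higher in 4 of 8. Counting cluster 9 as neuron-like gave 7 genes higher at day 7, beside 10.1% of all genes higher and 8.03% lower. At day 10 it gave 8, beside 21.3% higher and 20.4% lower, and the Chgb log2 fold became 0.30 (adjusted p = 0.0176), an alternative chosen after the data were seen. The gate on neuron markers gave a Chgb fold of -0.37 (adjusted p = 0.0487), so the direction of Chgb at day 10 depended on which cells were counted.

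**Figure D5:**
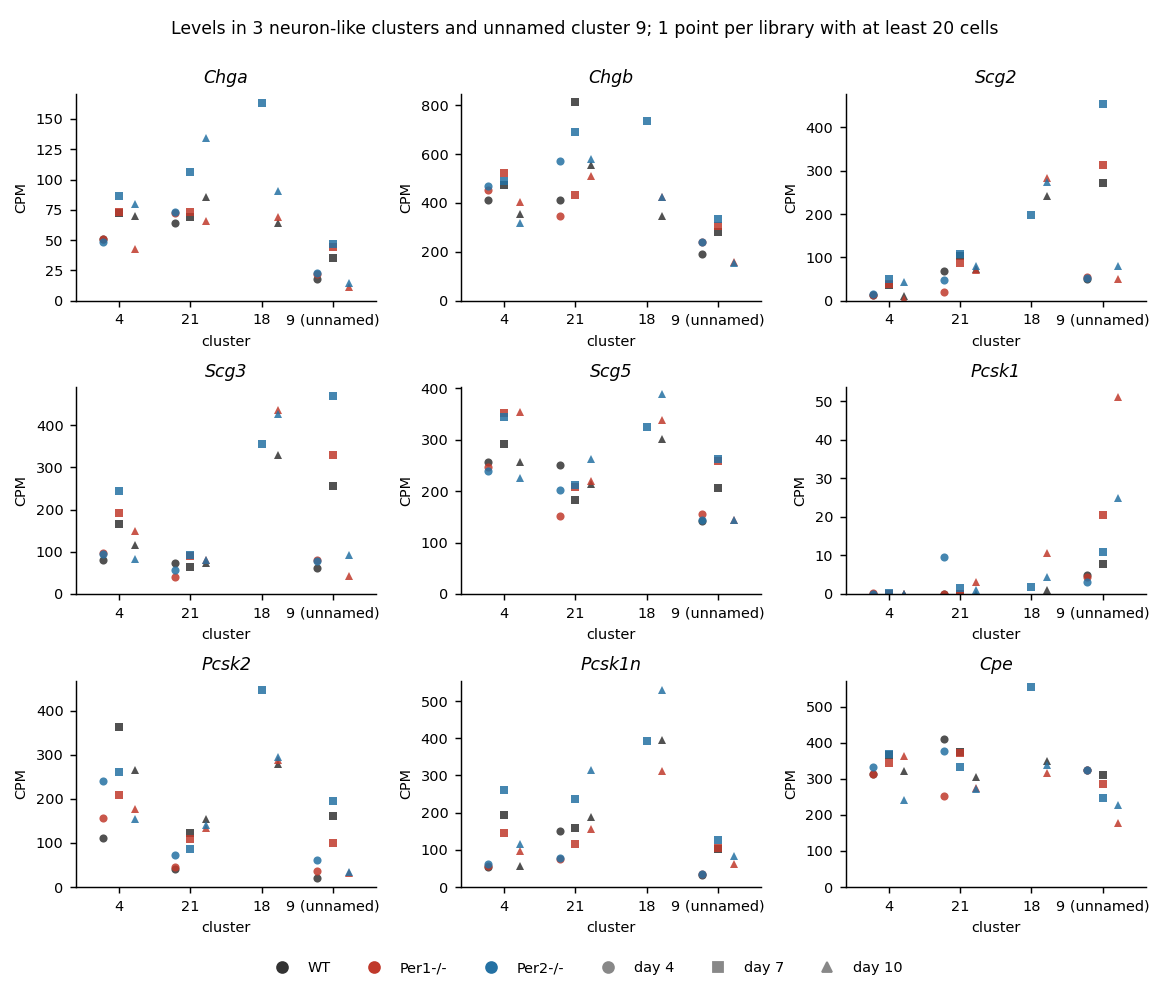
Level of each gene in CPM by library for the neuron-like clusters 4, 21 and 18 and the unnamed cluster 9, shown where a library had at least 20 cells of the cluster. Scg2 and Pcsk1 are higher in cluster 9 than in cluster 4 in 8 of 8 libraries, and Chga, Chgb, Scg5, Pcsk2 and Pcsk1n are lower.

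Pcsk1 had its main source in another unnamed cluster, number 8, led by Otor, Pmch, Tac1 and Calca, which held 722 of its 1741 UMI, while cluster 9 held 410 and cluster 18 held 97. In the libraries with at least 20 cells of it, the Pcsk1 level of cluster 8 ran from 3.0 to 17.3 CPM and its Pcsk2 level from 1.79 to 41.7 CPM. Cluster 4, by contrast, held 6 UMI of Pcsk1 in 5145 cells.

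Fibroblast-like cells gave a second time course, in which several of the 9 genes were low. The fibroblast-like and macrophage-like medians were 0.16 and 0.27 CPM for Chga, 1.26 and 0.94 for Chgb, 0.48 and 0.35 for Scg3 and 1.24 and 0.97 for Scg5, and the classes did not differ beyond their spread in these 4 genes (exact permutation test, adjusted p from 0.0844 to 0.871). Pcsk1n, with medians of 1.62 and 0.87 CPM, was higher in fibroblast-like cells in 9 of 9 libraries (adjusted p = 0.013). Scg2 was different. It was at 1.05, 2.69 and 0.56 CPM on day 4 in WT, Per1-/- and Per2-/-, at 5.38, 38.8 and 5.87 CPM on day 7 and at 11.8, 18.8 and 13.8 CPM on day 10. Each later library was above all those of day 4, and Per1-/- day 7 stood well above the rest.

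At day 7, 1 of the 9 genes was higher in fibroblast-like cells, where 1.03% of 16804 genes were higher and 1.32% lower. That gene was Scg2, with a log2 fold of 3.24 ± 0.49 (adjusted p = 0.0316), called in 9 of 17 settings. Without Per1-/- day 7 it was 2.55 (adjusted p = 0.113), and it also missed the threshold without any other library of days 4 or 7 or without WT day 10 (adjusted p from 0.0515 to 0.133). At day 10, 2 of the 9 were higher, where 9.31% of all genes were higher and 8.84% lower. They were Scg2 (3.66 ± 0.50, adjusted p = 0.0047) and Pcsk2 (2.17 ± 0.27, adjusted p = 0.00335), both called in 17 of 17. Pcsk1n (1.39, adjusted p = 0.103) passed by DESeq2 alone (1.38, adjusted p = 0.0146). Pcsk2 was at 0.53, 0.29 and 0.59 CPM on day 4, at 1.18, 0.30 and 1.34 CPM on day 7 and at 2.99, 0.89 and 3.46 CPM on day 10, where macrophage-like cells ran from 0.13 to 1.79 CPM. Cpe, at 163, 144 and 164 CPM on day 4 and 185, 111 and 192 CPM on day 10, overlapped between the days.

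The fibroblast-like class, like the neuron-like one, did not keep the same clusters over time. Cluster 3, led by Igf2 and Clec3b, had at most 2 cells in a library of day 4, between 9 and 85 on day 7 and between 695 and 3825 on day 10. Cluster 5, led by Pcolce2 and Mia, had 0 cells on day 4 and 4346 in Per2-/- day 10. How far this turnover of clusters moved the values of the class was not tested, and the levels within single clusters are given as a description.

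Cluster 0, with C1qtnf3 and Flt1 among its leading genes, had cells in all 9 libraries. Its Scg2 was at 1.46, 4.75 and 0.70 CPM on day 4 in WT, Per1-/- and Per2-/-, at 9.79, 45.2 and 14.7 CPM on day 7 and at 39.5, 69.2 and 68.1 CPM on day 10. Both later days lay above day 4 in this cluster and overlapped with each other. In cluster 3 Scg2 was at 15.3, 18.3 and 36.8 CPM on day 10. Cluster 1, led by Slc14a1 and Angptl7, had between 0 and 1.34 CPM of Scg2 in all 9 libraries, and the macrophage-like cells had between 0 and 1.58 CPM. Pcsk2 was divided otherwise. In cluster 1 it was at 0.30, 0.29 and 0.62 CPM on day 4 and at 5.02, 5.79 and 3.82 CPM on day 10, without overlap. Cluster 17, led by Kif11 and Depdc1a, had 1.73, 0.83 and 2.1 CPM on day 4. It had 29.2, 7.6 and 9.31 CPM on day 10, also without overlap. Of the barcodes of cluster 17, 19.2% were removed as doublets. In cluster 0 Pcsk2 ran from 0 to 1.85 CPM with the days overlapping.

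Whether the change from day 4 to day 10 differed between neuron-like and fibroblast-like cells was tested as an interaction. It was called for 1 of the 9 genes, where 15.2% of 17269 genes had a positive difference (neuron-like minus fibroblast-like) and 17.5% a negative one. That gene was Pcsk1, with a difference of 2.84 ± 0.97 on the log2 scale (adjusted p = 0.0471), and DESeq2 and limma-voom called it too. The Pcsk1 difference missed the threshold without WT or Per1-/- day 4, WT or Per2-/- day 7, or Per1-/- or Per2-/- day 10, where it lay between 2.35 and 2.84 (adjusted p from 0.0625 to 0.18). It was 1.78 at Leiden resolution 0.5 (adjusted p = 0.264), 0.89 with the gate on neuron markers (adjusted p = 0.374) and 0.22 with cluster 9 counted as neuron-like (adjusted p = 0.873). With no filter on low counts it was 2.84 and missed the threshold by edgeR (adjusted p = 0.0514). The difference for Scg2 was 0.44 ± 0.81 (adjusted p = 0.729), so the rise of Scg2 was not shown to differ between these classes. Pcsk2 (-1.55 ± 0.54, adjusted p = 0.0509) and Pcsk1n (1.10, adjusted p = 0.0694) did not pass here. The Pcsk2 difference passed by DESeq2 (-1.42, adjusted p = 0.0438) and limma-voom (-1.71, adjusted p = 0.037). By edgeR it passed with no filter, at least 5000 UMI or the gate, and without WT day 4, Per1-/- day 7, Per2-/- day 7 or Per1-/- day 10 (adjusted p from 0.00439 to 0.0467). Pcsk1n passed by DESeq2 (1.20, adjusted p = 0.0243). By edgeR it passed with doublets kept, at Leiden resolution 0.5, without Per2-/- day 10 or with cluster 9 counted (adjusted p from 0.00917 to 0.0464).

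The genotypes were compared with the 3 days as replicates and day as a term. In neuron-like cells 0 of the 9 genes passed edgeR's test in Per1-/- against WT, Per2-/- against WT or Per1-/- against Per2-/-, where 0% of all genes were higher and 0% lower. In these comparisons 541, 684 and 1044 of all genes had an edgeR p below 0.05 before adjustment. The calls by DESeq2 numbered 8, 15 and 40, and those by limma-voom 0, 1 and 0. Per2-/- libraries had the highest neuron-like Pcsk1n and Scg2 on each of the 3 days and the highest Chga on days 7 and 10. The genotypes also differed in cluster make-up: cluster 18, the cluster with more Scg2, Pcsk1n and Scg3 than cluster 4, held 88.6% of the neuron-like UMI in Per2-/- day 10 against 74.9% in WT and 72.3% in Per1-/-, and 5.48% in Per2-/- day 7 against 1.35% and 4.49%. The part of this make-up in the differences between genotypes was not tested. The largest difference relative to its error was that of Pcsk1n in Per1-/- against Per2-/-, -0.63 ± 0.13 (unadjusted p = 4.23e-04, adjusted p = 0.291). The same Pcsk1n difference passed by DESeq2 (-0.62, adjusted p = 0.00494), with no filter on low counts (adjusted p = 1.83e-05), and without Per1-/- day 4 (-0.79, adjusted p = 0.025) or Per2-/- day 4 (-0.80, adjusted p = 0.0233). Beside it, Xist, the transcript of the inactive X, was at 0 in neuron-like cells of Per1-/- days 7 and 10 and between 690 and 1705 CPM in the other libraries, and Pcsk1n lies on chromosome X; its part in the difference was not tested. Scg3 (0.45 ± 0.10, adjusted p = 0.392) and Scg2 (0.43 ± 0.10, adjusted p = 0.454) were higher in Per2-/- than in WT without passing the test. With no filter on low counts these and Pcsk1n passed (adjusted p = 0.00829 for Scg3, 0.0343 for Scg2 and 0.0116 for Pcsk1n), and Scg3 also passed without Per2-/- day 4 (0.57, adjusted p = 0.0459). Scg2 lies on chromosome 1, 12.0 Mb from Per2, the gene targeted in the cells labelled Per2-/-. The part of this position in the Scg2 difference was not tested. Pcsk1 in Per1-/- and Per2-/- against WT gave 2.38 ± 0.91 (adjusted p = 1) and 2.46 ± 0.90 (adjusted p = 0.884).

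In fibroblast-like cells 0 of the 9 passed edgeR's test in Per1-/- or Per2-/- against WT, again beside 0% of all genes in either direction. Before adjustment 1639 and 1387 of all genes had an edgeR p below 0.05. DESeq2 made 307 and 149 calls and limma-voom 0 in each. Scg2 in Per1-/- against WT was at 1.81 ± 0.47 (adjusted p = 0.362), Pcsk2 at -1.43 ± 0.27 (adjusted p = 0.362) and Cpe at -0.54 (adjusted p = 0.421). DESeq2 called Scg2 (1.78, adjusted p = 0.00125) and Pcsk2 (-1.43, adjusted p = 0.00213) among its 307, and by edgeR Pcsk2 passed without Per1-/- day 4 (-1.78, adjusted p = 0.0105). The fibroblast-like clusters were unevenly spread here too, with 1094 WT and 79 Per1-/- cells of cluster 1 on day 7 and 442 and 101 on day 10. Within cluster 1, Pcsk2 was at 0.30 CPM in WT and 0.29 CPM in Per1-/- on day 4, at 2.4 and 0 CPM on day 7 and at 5.02 and 5.79 CPM on day 10. Within cluster 0, Scg2 was higher in Per1-/- than in WT on each of the 3 days.

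Other genes of the pathway were followed as 4 lists: further cargo and processing enzymes (15 genes), vesicle membrane, biogenesis and exocytosis (31), prohormones and neuropeptides (20) and transcriptional regulators (19). In neuron-like cells at day 7, 3 of 14 cargo and enzyme genes were higher and 0 lower, 10 of 30 vesicle genes were higher and 0 lower, 1 of 15 prohormones was higher and 0 lower, and 3 of 16 regulators were higher and 4 lower. Over all genes 9.61% were higher and 7.01% lower, and the lists' median log2 folds were 0.31, 0.22, 0.35 and -0.17. Among the vesicle genes the synaptotagmins Syt4 (1.45) and Syt7 (1.29) rose, and among the cargo and enzymes Cyb561 (1.47), which supplies electrons to the amidating enzyme, and Vgf (1.53, adjusted p = 7.52e-04), a granin-like precursor. The 3 regulators that rose included Nhlh2 (4.44) and Myt1l (0.78), one of the introduced factors. The regulators that fell were Insm2 (-1.04), Pou3f4 (-0.95), Pou3f2 (-0.54) and St18 (-0.54). Ptprn2, a transmembrane protein of the vesicle, rose by 1.09 (adjusted p = 0.00204). Pam, Furin, Ptprn, Cadps, Cadps2, Rest and Insm1 did not pass, with log2 folds of 0.23, -0.09, 0.25, -0.03, 0.39, -0.14 and -0.48.

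At day 10, 7 of 14 cargo and enzyme genes were higher and 2 lower, 11 of 30 vesicle genes were higher and 3 lower, 5 of 15 prohormones were higher and 1 lower, and 2 of 16 regulators were higher and 8 lower, where 23.9% of all genes were higher and 21.3% lower. The median log2 folds were 0.40, 0.19, 0.94 and -0.38 in the same order. Vgf rose by 3.48, from 4.29, 3.91 and 4.6 CPM on day 4 through 10.6, 6.79 and 21.6 on day 7 to 43.7, 35.9 and 64.6 CPM on day 10 in WT, Per1-/- and Per2-/-, with no overlap between days. Nts, the precursor of neurotensin, rose by 7.49, Syt4 by 3.13 and Rab3a, a GTPase of the vesicle, by 1.28. Pam, the amidating enzyme, rose by 0.92 (adjusted p = 8.58e-05), Ptprn by 0.89 (adjusted p = 1.41e-04) and Ptprn2 by 0.76 (adjusted p = 0.00574). Gal, the precursor of galanin, fell by 2.86, Insm2 by 1.97, Arfip1 by 0.68 and Myt1 by 0.56.

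Insm1, a zinc-finger factor of endocrine cells, was lower at day 10 (-0.64, adjusted p = 0.0132), from 218, 187 and 128 CPM on day 4 to 85.3, 118 and 117 CPM on day 10. Furin (-0.21, adjusted p = 0.187), the convertase of the constitutive pathway, Cadps (-0.14, adjusted p = 0.425) and Cadps2 (0.14, adjusted p = 0.51), which prime vesicles for release, and Rest (-0.42, adjusted p = 0.165) did not pass. Npy was too low to be tested, at 0 to 0.60 CPM.

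Against fibroblast-like cells, 4 of 14 cargo and enzyme genes were higher in neuron-like cells and 8 lower, 22 of 30 vesicle genes were higher and 3 lower, 7 of 13 prohormones were higher and 1 lower, and 14 of 15 regulators were higher and 1 lower, where 38% of all genes were higher and 42% lower. The median log2 differences were -0.65, 1.58, 1.93 and 6.86. Higher genes included Ptprn2 (7.51), Scrt1 (7.49), Cadps (7.17), Insm1 (7.12), St18 (6.98), Cadps2 (5.89), Vgf (5.87), Rab3a (3.82) and Ptprn (3.63). Pam (-1.71), Furin (-0.90), Cpz (-5.60), Penk (-5.76) and Arfip1 (-1.41) were lower. Rest, the repressor of neuronal genes in other cells, was lower at -4.28, with 4.53 to 9.88 CPM in neuron-like and 85.9 to 103 CPM in fibroblast-like cells. Npy did not pass (-1.26, adjusted p = 0.219).

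Against Schwann-like cells the higher and lower counts were 7 and 5 of the cargo list, 22 and 5 of the vesicle list, 9 and 1 of the prohormones and 12 and 2 of the regulators, where 38.9% of all genes were higher and 36.9% lower, with median differences of 0.70, 2.10, 3.11 and 5.09. The genes with the smallest adjusted p were Rab3a (4.43), Cadps2 (6.17), Insm1 (5.39) and Scrt1 (6.88) among those higher and Rest (-4.05), Arfip1 (-1.79), Pam (-2.32) and Cpd (-1.21), a carboxypeptidase of the trans-Golgi network, among those lower. Vgf (6.20), Ptprn (4.99), Ptprn2 (7.07) and Cadps (6.0) were higher and Furin (-1.09) lower, and Npy did not pass (-2.35, adjusted p = 0.0828). Against astrocyte-like cells the counts were 6 and 4, 23 and 5, 5 and 7, and 12 and 2, where 34.8% of all genes were higher and 38.4% lower, with median differences of 0.07, 1.14, -0.70 and 3.87. The smallest adjusted p were those of Rab2a (1.16), Rab3a (3.59), Scrt1 (5.94) and Ica1 (4.14), which were higher, and of Rest (-3.57), Arfip1 (-1.07), Pam (-1.74) and Sytl4 (-2.81), which were lower. Vgf (3.51), Ptprn (3.67), Ptprn2 (3.14), Cadps (2.81), Cadps2 (3.99) and Insm1 (4.51) were higher, Npy was lower (-2.70, adjusted p = 0.0354), and Furin did not pass (-0.12, adjusted p = 0.445).

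In fibroblast-like cells at day 7, 2 of 14 cargo and enzyme genes were higher and 1 lower, 0 of 28 vesicle genes were higher and 1 lower, 0 of 13 prohormones changed in either direction, and 0 of 12 regulators were higher and 1 lower, where 1.03% of all genes were higher and 1.32% lower. At day 10 these counts were 3 and 1, 1 and 4, 2 and 1, and 0 and 2, where 9.31% were higher and 8.84% lower. The lists' medians were between -0.57 and 0.16 at day 7 and between -0.07 and 0.26 at day 10. Cpz (2.09 at day 7 and 3.28 at day 10), a secreted carboxypeptidase, and Pcsk5 (2.14 and 2.20), another convertase, rose, and so did Qpct (2.10) and Calca (1.63) at day 10. Ptprn fell by 1.59 at day 7 and by 1.99 at day 10, Pou3f4 fell by 1.70 and 1.55 and Ica1 fell by 1.5 at day 10. Vgf, Pam, Furin, Cadps, Cadps2, Npy, Rest and Insm1 did not pass at day 7 (log2 folds from -1.62 to 0.60) or at day 10 (from -1.02 to 0.88), and Ptprn2 was too low to be tested.

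The difference between the classes in the change to day 10, neuron-like minus fibroblast-like, was positive for 2 of 15 cargo and enzyme genes and negative for 3. These counts were 6 and 3 of 31 vesicle genes, 4 and 1 of 16 prohormones and 1 and 1 of 17 regulators, where 15.2% of all genes had a positive and 17.5% a negative difference. The medians were -0.09, 0.03, 0.61 and -0.39. Nts differed by 5.99, Ptprn by 2.87, Bdnf by 2.52 and Ica1 by 1.87 (adjusted p = 6.74e-05), and in the other direction Pcsk5 by -3.06, Arfip1 by -0.79, Pcsk7 by -0.68 and Ccdc186 by -0.54 (adjusted p = 0.00319). Vgf (2.54, adjusted p = 0.00704) and Furin (-0.49, adjusted p = 0.015) also passed, while Pam, Ptprn2, Cadps, Cadps2, Npy, Rest and Insm1 lay between -0.51 and 0.43 and did not.

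In the genotype comparisons no list had a gene that passed edgeR's test. In neuron-like cells Vgf and Ptprn had the lowest adjusted p of the genes named in every comparison, in Per1-/- against Per2-/- (-0.90 and -0.54, adjusted p = 0.327 for each). These genes lay between -0.30 and 0.44 in Per1-/- against WT and between -0.22 and 0.66 in Per2-/- against WT. In fibroblast-like cells they lay between -0.52 and 1.17 in Per1-/- against WT and between -0.38 and 0.88 in Per2-/- against WT.

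The genes most like the members in their pattern were looked for by Pearson's r with the members' mean over the 7 class means, among 10618 genes, as a description over 7 points that share the same libraries. Pclo (r = 0.997), a presynaptic scaffold, came first, followed by Dnm1l, Slitrk4 and Ppp2r2c (0.993 each), Soga3, Khdrbs2 and Mapk8ip3 (0.991 each), Abhd2 and Bex2 (0.990 each) and Mcat (0.989). The members themselves ranged from 0.969 for Chgb, through 0.941 for Scg5, 0.936 for Scg3, 0.933 for Pcsk1n, 0.916 for Chga and 0.910 for Pcsk2, to 0.782 for Scg2, 0.575 for Cpe and 0.532 for Pcsk1, the last 3 being the genes with most of their UMI outside the neuron-like cells.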

How the data were processed

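The 9 libraries of 10x 3′ single-cell RNA-seq were analysed from the count matrices that the authors deposited, UMI counts per gene and cell barcode made with Cell Ranger (version 7.1 per the submitters' processing notes, 4.0.0 or 6.0.0 per the file headers) on mm10. The members and the gene lists were chosen with earlier results of these data known. Cells needed 3000 UMI or more, of which no more than 20% mitochondrial, and the highest Scrublet scores (0.8% per 1000 barcodes) were removed as doublets. Cells were clustered in scanpy 1.11.5 on 2000 variable genes (30 components, 15 neighbours, Leiden resolution 1), with 107 genes kept out: the members, the lists and mitochondrial genes. Clusters took a class name from markers. Counts were summed per class and library, for libraries with at least 20 cells of the class, as CPM of all UMI of the class. Sums were tested with edgeR 4.0.16 (TMM, filterByExpr, quasi-likelihood) over all genes, with day and genotype as terms, and adjusted by Benjamini-Hochberg at 0.05. DESeq2 1.42.0 and limma-voom 3.58.1 were alternatives, as were RLE scaling, no filter, no genotype term, doublets kept, at least 5000 UMI, Leiden resolution 0.5, a gate on neuron markers, and leaving out each library. The test code was checked on simulated counts. For the cell shares, 42 cells with fewer than 3000 shared-gene UMI were left out. Total UMI per library ran from 126625215 to 353198559, of which the 30406 genes shared by the 2 annotations (31053 genes at days 4 and 7 and 32285 at day 10) held 99.3% to 99.9%. Comparisons of day 10 with day 4 carry this difference in annotation together with the day. Genes named from the lists were, in each comparison, all that passed where at most 8 did, otherwise the 4 with the smallest adjusted p in each direction, and Vgf, Pam, Furin, Ptprn, Ptprn2, Cadps, Cadps2, Npy, Rest and Insm1 in any case. Clusters, library effects and genes named apart from this rule were chosen after their values were seen. Some genes that this rule names are not reported here.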

Additional observations from a re-analysis of the deposited data

Results flagged for a closer look

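The change from day 4 to day 10 differed between neuron-like and fibroblast-like cells, by the test of the difference itself, for 1 of the 9 members and for 21 further genes of the lists. The lists had 15 cargo and enzyme genes, 31 vesicle genes, 16 prohormones and 17 regulators tested. Of all genes tested, 15.2% had a positive and 17.5% a negative difference, so these calls were no more frequent than over all genes. Each value is the log2 fold in neuron-like minus that in fibroblast-like cells. Pcsk1 differed by 2.84 (adjusted p = 0.0471), but by 0.22 with cluster 9 counted as neuron-like, 0.89 with a gate on neuron markers and 1.78 at Leiden resolution 0.5, none of which passed (adjusted p = 0.873, 0.374 and 0.264). Of the cargo and enzyme genes, the difference was positive for Cyb561 (3.30) and Vgf (2.54) and negative for Pcsk5 (-3.06), Pcsk7 (-0.68) and Furin (-0.49). Of the vesicle genes, it was positive for Ptprn (2.87), Syt4 (2.17), Ica1 (1.87), Rab3a (1.06), Rab27b (4.06) and Eipr1 (0.70) and negative for Arfip1 (-0.79), Ccdc186 (-0.54) and Pick1 (-0.35). Of the prohormones, it was positive for Nts (5.99), Bdnf (2.52), Pomc (2.46) and Vip (8.92) and negative for Gal (-2.12). Of the regulators, it was positive for Pou3f2 (0.95), which is also one of the introduced factors, and negative for Creb1 (-0.36). Transgene and endogenous transcripts of Pou3f2 cannot be told apart in these counts.

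Pcsk1 also had 78.7% of its UMI in cells of unnamed clusters, which enter none of the comparisons between classes.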

How the results depend on the processing

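Counts are of members that passed, higher and lower together. The labels carry no replicate numbers, so the fits over days and genotypes had no replicate block. The fits between classes and the interaction took the library as a block, and the exact test between classes paired the classes of each library. In neuron-like cells at day 7 the count was 4, where 9.61% of all genes were higher and 7.01% lower. It was 7 with cluster 9 counted (10.1% and 8.03%) and 1 within cluster 21 (0.828% and 0.296%). At day 10 it was 7 (23.9% and 21.3%) and 2 within cluster 21 (2.2% and 0.95%). Within cluster 4, with 21 to 48 cells per library of day 10, it was 0 (2.29% and 1.49%). With 1 library left out, Scg3 passed in Per2-/- against WT without Per2-/- day 4. Pcsk1n passed in Per1-/- against Per2-/- without Per1-/- or Per2-/- day 4. In fibroblast-like cells Pcsk2 passed in Per1-/- against WT without Per1-/- day 4. With no filter on low counts Per2-/- against WT gave 3, all higher, where 0.482% of all genes were higher and 0.203% lower, and Per1-/- against Per2-/- gave 1, lower, where 0.649% were higher and 0.703% lower. DESeq2 gave 1, lower, in the latter, where 0.12% of all genes were lower, and 2 in fibroblast-like Per1-/- against WT, where 0.922% were higher and 0.905% lower. Fibroblast-like day 7 gave 0 with no genotype term and 0 to 1 with a library left out, 0 without any library of days 4 or 7 or WT day 10. The interaction was called for Pcsk1 (positive) by edgeR, where 15.2% of all genes had a positive and 17.5% a negative difference. DESeq2 added Pcsk2 (negative) and Pcsk1n (positive), limma-voom and the setting with at least 5000 UMI added Pcsk2, and doublets kept added Pcsk1n. Without Per1-/- day 4 or WT day 7 no member passed, and without Per1-/- day 7 Pcsk2 passed beside Pcsk1. Counting cluster 9 as neuron-like turned the fold of Chgb at day 10 to 0.30 (adjusted p = 0.0176) and that of Pcsk1 against astrocyte-like cells to 1.29 (adjusted p = 0.02). The median over the 9 genes of the neuron-like share of UMI was then 81.9% in place of 60.0%, and the median share of neuron-like cells with a UMI was 73.3% without thinning in place of 39.7%. The cause of these changes was not tested. Of the other values, 2110 for single genes and 220 for comparisons stayed on the same side of the threshold, or within the limits set for values and counts, under the settings named among the methods. In 102 cases the sign changed with neither value past the threshold. Pcsk1 rested on 118 neuron-like UMI, which limits any statement on it.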
